A study of Homo sapiens with 2 samples.

Results

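Pause release and elongation factor genes were examined for MYC binding at their start sites in TET21 cells. The 9 genes were fixed by name: *CDK9*, *CCNT1*, *HEXIM1*, *CDK7*, *SUPT5H*, *NELFE*, *SUPT6H*, *PAF1* and *CTR9*. A MYC peak belonged to a gene when its summit lay within 5 kb of that gene's given GRCh37 start site, and a gene without such a peak remained a member. By this rule 6 of the 17659 peaks in the list belonged to the genes, 1 each at *CDK9*, *CCNT1*, *HEXIM1*, *SUPT5H*, *NELFE* and *SUPT6H*. No peak belonged to *CDK7*, *PAF1* or *CTR9*.

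MYC is a transcription factor that binds DNA with MAX as a dimer. TET21 (SH-EP/TET21/N) is a human neuroblastoma line, known for a MYCN transgene that doxycycline switches off, and the cells used here expressed full-length (WT) MYC. The cells were held in doxycycline at 1 µg/mL for 7 days and fixed in 1% formaldehyde for 10 min. The study had 1 library of chromatin precipitated with 2 µg of a rabbit polyclonal antibody to MYC, made by the submitters, and 1 input library of the same cells, so no value has a replicate error and none was tested. Whether the antibody tells introduced from endogenous MYC is not given in the sources used here.

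RNA polymerase II often stops shortly after it starts a transcript. The pause is held by 2 protein complexes, DSIF and NELF, and is released by the kinase complex P-TEFb, which phosphorylates both and the polymerase tail. P-TEFb itself is kept inactive in a complex of the 7SK RNA with HEXIM proteins. After release, DSIF travels with the polymerase together with the histone chaperone SPT6 and the PAF1 complex. MYC is known to bring P-TEFb to promoters.

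The reference promoters of the genes differ in the motif that MYC and MAX are best known to bind, the canonical E-box CACGTG. All 9 genes were matched in the RefSeq promoter table (GRCh38.p14), which gives 250 bases before to 50 after each start, and the start farthest upstream was used for each gene. Only *CCNT1* and *CDK7* hold CACGTG in that window, 2 of 9 genes against 8.82% of 15812 protein-coding genes. These 2 promoters are shown for their E-box, in capitals, as the 250 bases before the start. The *CCNT1* stretch is at chr12:48716708-48716957 on the minus strand and the *CDK7* stretch at chr5:69234545-69234794 on the plus strand, both in GRCh38.p14.
CCNT1: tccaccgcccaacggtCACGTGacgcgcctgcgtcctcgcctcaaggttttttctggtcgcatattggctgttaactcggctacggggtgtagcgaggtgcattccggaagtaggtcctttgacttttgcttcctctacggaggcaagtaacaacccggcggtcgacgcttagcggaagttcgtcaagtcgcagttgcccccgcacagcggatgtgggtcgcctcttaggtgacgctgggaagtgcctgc
CDK7: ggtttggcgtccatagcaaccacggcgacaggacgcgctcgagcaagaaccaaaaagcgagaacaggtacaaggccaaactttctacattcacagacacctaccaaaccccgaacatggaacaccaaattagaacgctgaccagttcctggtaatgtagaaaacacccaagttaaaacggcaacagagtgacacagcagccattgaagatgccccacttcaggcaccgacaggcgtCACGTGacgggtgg

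The E-box starts 234 bases before the RefSeq start in *CCNT1* and 14 bases before it in *CDK7*. *CDK7* has a second RefSeq start 91 bases farther downstream, and the same E-box starts 105 bases before that one. CACGTG reads the same on both strands, and in both promoters it sits in a longer identical stretch of 11 bases, gtCACGTGacg. That stretch was found, on either strand, in 48 of the 15812 promoters (0.304%). *CCNT1* had a MYC peak and *CDK7* had none in the list.

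The promoters of *SUPT5H*, which had the peak with the highest fold of the 9 genes, and of *HEXIM1* are shown as examples without CACGTG. They are at chr19:39445332-39445581 and chr17:45148225-45148474, both on the plus strand of GRCh38.p14. Capitals in *HEXIM1* mark TATAAA, the core-promoter motif known as the TATA box.
SUPT5H: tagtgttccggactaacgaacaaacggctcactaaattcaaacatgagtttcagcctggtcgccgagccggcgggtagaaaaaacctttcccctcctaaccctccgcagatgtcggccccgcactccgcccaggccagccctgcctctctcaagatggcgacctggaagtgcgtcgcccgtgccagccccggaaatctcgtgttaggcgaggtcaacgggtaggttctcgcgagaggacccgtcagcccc
HEXIM1: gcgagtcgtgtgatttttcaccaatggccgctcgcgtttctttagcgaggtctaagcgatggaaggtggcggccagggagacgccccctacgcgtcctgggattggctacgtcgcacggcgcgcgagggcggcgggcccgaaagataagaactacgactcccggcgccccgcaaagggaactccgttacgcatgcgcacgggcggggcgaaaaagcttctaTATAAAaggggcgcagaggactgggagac

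TATAAA, searched on both strands, was found at *HEXIM1* alone of the 9, starting 29 bases before the start, and in 9.75% of all promoters. Neither CACGCG, found in 14.8% of promoters, nor CATGTG, found in 8.57%, was in any of the 9 windows on either strand; both are known as weaker variants of the E-box. The looser pattern CANNTG, which includes CACGTG, was in 8 of 9 windows, with *CDK9* as the exception, and in 64.6% of promoters. The GC box GGGCGG, on either strand, was in all 9 windows and in 58.3% of promoters. The *CDK9* window was the richest in G and C, at 82.0%, a share above that of 98.3% of promoters. *CDK7* had the lowest, 55.0%, and the median of the 9 was 61.7%, beside 62.7% over all promoters. The start sites used for the peaks and those of the RefSeq table are on different builds and need not mark the same base, so no motif was placed relative to a summit.

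**Figure D1:**
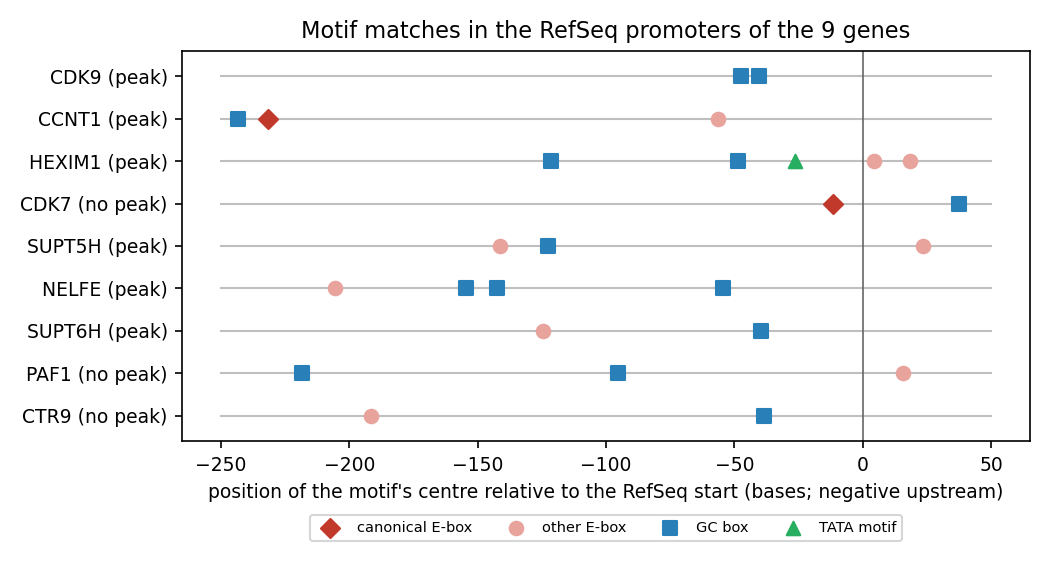
Motif matches in the RefSeq promoter of each of the 9 genes, by distance of the motif's centre from the RefSeq start in bases; "other E-box" marks matches to the loose pattern that are not canonical. The canonical E-box appears at CCNT1, which had a MYC peak, and at CDK7, which had none in the list.

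The wider pathway was looked at by promoter sequence only, because GRCh37 start sites were at hand for the 9 genes alone. Of 37 further genes of pausing and elongation, 34 were matched. CACGTG, found in 8.82% of all promoters, was in 4 of the 34 (11.8%). These were *AFF4*, a scaffold of the super elongation complex that carries P-TEFb, *MLLT1*, another subunit of that complex, *SUPT16H*, a subunit of the histone chaperone FACT, and *XRN2*, a nuclease that acts in termination. The GC box was in 24 of the 34 (70.6%), beside 58.3% of all promoters. CANNTG was in 19 (55.9%, beside 64.6%), CACGCG in 5 (14.7%, beside 14.8%) and CATGTG in 1 (2.94%, beside 8.57%). These differences were not tested. *CDC73*, *ELL2* and *TCEA1* were not matched.

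MYC was called at the start of 6 of the 9 genes (66.7%). As a background, 4.64% of the 293307 windows of 10 kb along chromosomes 1 to 22 and X held at least 1 summit. The share by chromosome ran from 1.63% on X to 12.8% on 19, where *SUPT5H* and *PAF1* lie, and was 10.4% on 17, where *HEXIM1* and *SUPT6H* lie. All 6 summits were also within 1 kb of the start, and 1.05% of windows of 2 kb held a summit. With a −log10 q of at least 5, 4 genes kept their peak, *CCNT1*, *HEXIM1*, *SUPT5H* and *SUPT6H*, and 3.48% of the 10 kb windows held such a summit. These windows fall mostly outside promoters, so they give the density of the list and not the rate at other start sites, which was not analysed here.

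Both subunits of P-TEFb had a peak. *CDK9*, the kinase, had its summit 865 bp downstream of the start, in a peak of 285 bp at chromosome 9, 130548767 to 130549051. Its summit was covered by 12 ChIP fragments, a count called the pileup here (95% Poisson interval 6.20 to 21.0), where the local background was 1.98 fragments, and the fold deposited by the authors was 4.36. *CCNT1* encodes cyclin T1, the regulatory partner of CDK9. Its peak, 266 bp at chromosome 12, 49110657 to 49110922, had 14 fragments at the summit (7.65 to 23.5), a background of 1.12 and a fold of 7.06. It covered the given start site near the peak's edge, with its summit 111 bp downstream. That start is a round number, so both the overlap and the side are uncertain. The *CDK9* summit was the farthest from its start among the 6, and it had the lower fold of the P-TEFb pair.

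*HEXIM1*, the inhibitor that holds P-TEFb with 7SK, had a peak of 199 bp on chromosome 17, 43224750 to 43224948, with its summit 145 bp downstream of the start. Its summit had 11 fragments (5.49 to 19.7) over a background of 0.825, the lowest background of the 6, and its fold was 6.58. *CDK7*, the kinase of TFIIH that also activates CDK9, had no peak within 5 kb. The nearest summits to its start were 45.1 kb upstream, with a fold of 4.36, and 98.0 kb downstream, with a fold of 8.31.

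Of the factors that hold the pause, the DSIF subunit had the highest fold and the NELF subunit the lowest of the 6 peaks. *SUPT5H* encodes SPT5, the large subunit of DSIF. Its peak, 255 bp at chromosome 19, 39936085 to 39936339, covered the start and had its summit 46 bp downstream, a pileup of 16 (9.15 to 26.0), a background of 1.12 and a fold of 8.002. *NELFE* encodes the NELF subunit with an RNA recognition domain. Its peak, 146 bp at chromosome 6, 31926713 to 31926858, was the narrowest of the 6 and ended 6 bp from the start, its summit 51 bp downstream, with a pileup of 11 (5.49 to 19.7), a background of 1.87 and a fold of 4.18. The Poisson intervals of the 2 pileups overlap, so these counts do not separate the 2 genes.

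*SUPT6H*, which encodes SPT6, had a peak of 214 bp on chromosome 17, 26989188 to 26989401, with its summit 183 bp downstream of the start. Its summit had 13 fragments (6.92 to 22.2) over a background of 1.03, and its fold was 6.89. Both genes of the PAF1 complex examined here lacked a peak. *PAF1*, a core subunit, had its nearest summit 11.5 kb upstream, with a fold of 6.65, and none downstream for 70.5 kb. *CTR9*, the scaffold subunit, was the farthest of the 9 genes from any summit, 57.3 kb from a downstream peak with a fold of 5.42 and 260.5 kb from the nearest upstream one. In the order of the list, the peak numbers on either side of each of these 3 starts were consecutive, so the authors' filter removed no numbered peak there.

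**Figure D2:**
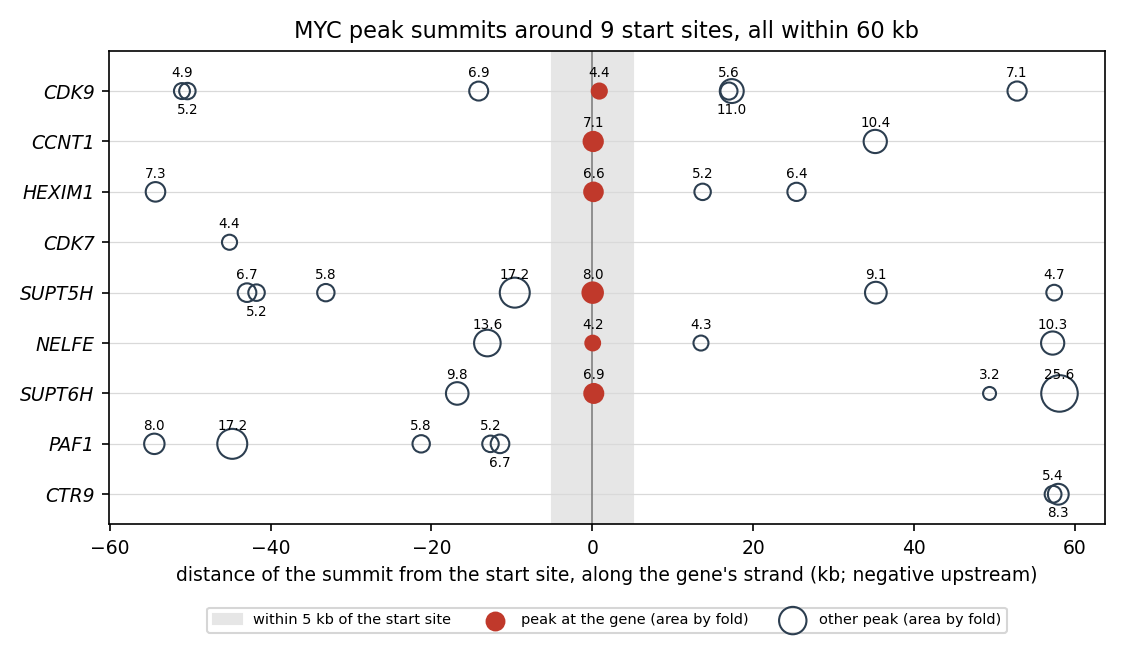
Distance of every MYC summit within 60 kb from the start site of each of the 9 genes, along the gene's strand in kb, with filled circles for the peaks within 5 kb, open circles for others, and the area and the number of each circle giving the fold. The 6 filled circles sit at the given start or just downstream of it, a side that is uncertain at such short distances. CDK7, PAF1 and CTR9 have none. SUPT5H and PAF1 start 54409 bp apart on chromosome 19 and share several open circles. The SUPT5H peak is drawn open in the PAF1 row.

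The rule's limit of 5 kb fell in a gap. The farthest summit inside it was that of *CDK9*, at 865 bp, and the nearest summits outside were 9642 bp upstream of *SUPT5H* and 11478 bp upstream of *PAF1*. Of the 6 summits inside, 5 lay within 200 bp of the start, and all 6 were on the downstream side of the start as given. The given starts of *CDK9* and *CCNT1* are round numbers, and for the 5 nearest summits the side is uncertain. A difference of this size can depend on which start is taken: the starts of *SUPT5H* and *PAF1*, on opposite strands of the same stretch of chromosome 19, were 54409 bp apart as used for the peaks and 54476 bp apart in RefSeq.

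Fragment counts at the 6 peaks spanned a narrow range, and the 2 lowest folds went with the 2 highest backgrounds. Fold is (pileup + 1) / (background + 1), so at similar pileups this follows from how fold is calculated. Pileups ran from 11 to 16 and all 6 Poisson intervals overlapped, so their order is not resolved. *HEXIM1* and *NELFE* had the same pileup of 11, and their folds were 6.58 and 4.18 over backgrounds of 0.825 and 1.87. The backgrounds of *CDK9* and *NELFE* exceeded those of 87.4% and 84.0% of all peaks, whereas the other 4 lay between 0.825 and 1.12. The *CDK9* background of 1.98 was shared within 0.0005 by 1732 peaks in the list, as the background takes few distinct values. With the background held fixed, counting error alone gave fold intervals of 2.42 to 7.37 at *CDK9*, 4.07 to 11.5 at *CCNT1*, and 3.56 to 11.3 at *HEXIM1*. The intervals were 4.77 to 12.7 at *SUPT5H*, 2.26 to 7.20 at *NELFE* and 3.90 to 11.4 at *SUPT6H*, and they too overlapped among all 6. Beyond the way fold is calculated, the part that the background plays in the low folds of *CDK9* and *NELFE* was not tested.

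**Figure D3:**
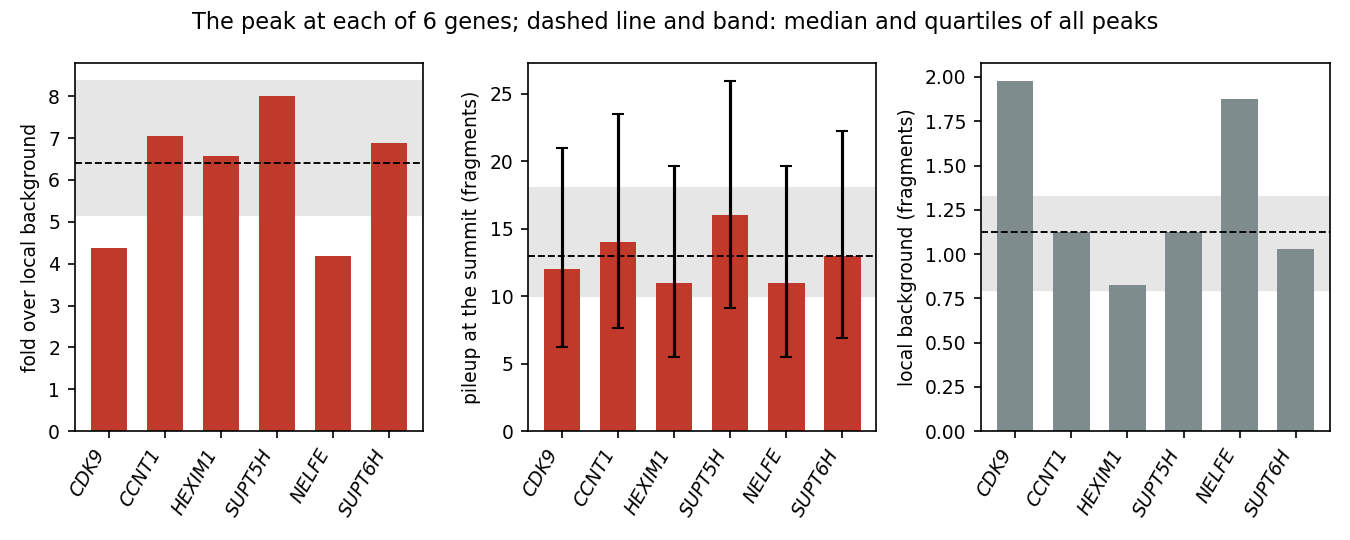
Fold over the local background, pileup at the summit in fragments with its 95% Poisson interval, and local background in fragments at the 6 genes with a MYC peak; dashed lines and bands are the median and quartiles of all 17659 peaks. CDK9 and NELFE have the lowest folds and the highest backgrounds, while the 6 pileups stay between 11 and 16.

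Set in the whole list, the peaks at these genes were of middling strength. Their median fold was 6.73, beside 6.40 over all peaks with quartiles of 5.17 and 8.38. Of the 6, 4 were above the list's median, 2 were below its lower quartile (*CDK9* and *NELFE*), and none was above its upper quartile. The highest, at *SUPT5H*, ranked 5028 by fold, and the lowest, at *NELFE*, ranked 16463 of 17659. None reached a fold of 10, which 15.4% of all peaks did. The caller's −log10 q was 10.4 at *SUPT5H*, 8.27 at *CCNT1*, 7.67 at *SUPT6H*, 6.60 at *HEXIM1*, 3.64 at *CDK9* and 3.12 at *NELFE*, and the median of all peaks was 6.88. By −log10 q, 3 of the 6 were above the list's median. By pileup, 2 were, and the median pileup of the 6 was 12.5 beside 13 for the list. Widths ran from 146 to 285 bp, with a median of 234.5 bp beside 226 bp for the list.

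The counts also show how close each peak was to the limit of calling. At backgrounds within 0.1 of that of *NELFE* or *CDK9*, the fewest fragments called anywhere were 9, against pileups of 11 and 12 at these genes. At the background of *HEXIM1* and that of *SUPT6H* the fewest were 6, and at that of *CCNT1* and *SUPT5H* 7. No peak in the list rested on fewer than 5 fragments. The background at *CDK7*, *PAF1* and *CTR9* is not in a list of peaks, so how many fragments a call there would have needed is unknown. No MYC peak was called at these genes, which does not show that MYC was absent.

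**Figure D4:**
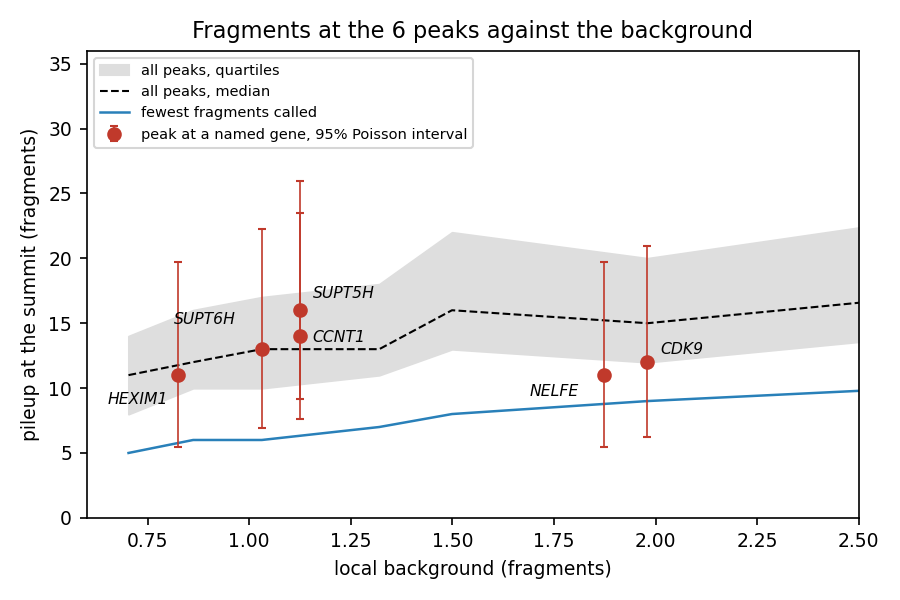
Pileup at the summit against local background, both in fragments, for the 6 peaks at the named genes with 95% Poisson intervals, over the median, quartiles and lowest pileup of all peaks in bins of background. The NELFE and CDK9 peaks, with 11 and 12 fragments, lie closest to the line of the fewest fragments called.

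The peaks at these genes had no second summit close by, and the nearest other summit was 9688 to 35069 bp away. None of the 6 had another summit within 5 kb, against 42.4% of all peaks. Within 10 kb only *SUPT5H* did, against 49.7% of all peaks. These shares cover peaks of any fold, and the difference was not tested. At 5 of the 6 genes with a peak, a peak of higher fold lay within 50 kb. The same held for 51.4% of all peaks and for 60.3% of the 11440 peaks with a fold between the lowest and the highest of the 6. With 6 peaks, this was not tested. The strongest was 9.64 kb upstream of *SUPT5H*, with a fold of 17.2 and a pileup of 34. Others were 13.0 kb upstream of *NELFE* with a fold of 13.6, 17.3 kb downstream of *CDK9* with 10.99, 35.2 kb downstream of *CCNT1* with 10.4, and 16.8 kb upstream of *SUPT6H* with 9.77. At *HEXIM1* its own peak had the highest fold within 50 kb, 6.58, but only narrowly. A peak 25.4 kb downstream had a fold of 6.38, with a higher pileup (18 against 11) and a higher −log10 q (8.68 against 6.60).

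Neighbouring genes limit which promoter some peaks can be given to. In the RefSeq promoter table, 3 of the 9 genes start head to head with another protein-coding gene: *SUPT6H* with *SDF2*, 11 bp apart, *NELFE* with *SKIC2*, 204 bp apart, and *PAF1* with *MED29*, 272 bp apart. A peak at the *SUPT6H* or *NELFE* start cannot be told apart from one at its partner's start. *PAF1* and *MED29* share a start region in which no peak was called. The nearest neighbouring start of *SUPT5H* in RefSeq, on the side of the strong upstream peak, is that of *RPS16*, a ribosomal protein gene, and the nearest neighbour of *HEXIM1* is its paralogue *HEXIM2*.

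The surroundings of the genes differed in density. Within 500 kb of the start there were 39 summits around *CDK9*, 32 around *NELFE*, 27 around *HEXIM1*, 19 around *SUPT6H*, 16 around *PAF1*, 15 around *CCNT1* and 14 around *SUPT5H*. There were 12 around *CTR9* and 8 around *CDK7*, the lowest counts of the 9. A peak of the list had a median of 12 summits within the same distance, itself included, with quartiles of 7 and 21. *PAF1*, which had no peak, had 16 summits around it, close to the 15 of *CCNT1* and 14 of *SUPT5H*, which did. The *PAF1* and *SUPT5H* starts are 54409 bp apart, so their windows largely overlap. The relation between surroundings and peaks was not tested.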

How the data were processed

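The data are the authors' list of MYC peaks for 1 ChIP library, with 1 input library. Per the submitters' processing notes, the tools included MACS2 2.1.0, STAR 2.5.2a, Picard 2.7.1, bedtools and SAMtools 1.3 and the build was GRCh37; their roles are not listed. The authors' deposited fold is a ratio to the caller's local background. The deposited −log10 p and −log10 q come from the caller, and the deposited score equals 10 times the −log10 q, rounded down. Of 17679 peak numbers, 20 are missing, by a filter whose rule is not given in the sources used here. Coordinates of peaks are GRCh37, 1-based.

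Peaks were joined to the genes by summit. Pileup and background were recovered from fold and −log10 p, as (pileup + 1) / (background + 1) and a Poisson tail, and matched within 0.001 for 100.0% of peaks; the procedure was tested on simulated data. Intervals are exact 95% Poisson intervals and cover counting error only; without molecular identifiers, fragments may be copies of 1 molecule. Library depth is unknown. Motifs were searched in RefSeq promoters (GRCh38.p14), 1 per protein-coding gene; the choice of 1 promoter per gene was made after the table was seen. With 1 library a kind no test was made. All 9 genes were named, with or without a peak, beside nearest neighbours and the genes of the wider list with CACGTG. A further pathway gene, counted in no number here, is not reported here. Members and lists were chosen with earlier results of these data known. Python 3.11.15, pandas 2.3.3 and SciPy 1.17.1 were used.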

Additional observations from a re-analysis of the deposited data

How the results depend on the processing

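The 6 genes with a peak stayed 6 when summits were required within 1 or 2 kb or allowed within 10 kb, and when any base of a peak within 5 kb counted; the number of peaks stayed 6 except for 7 within 10 kb, where *SUPT5H* gained the upstream peak. Joining peaks no more than 1 kb apart left 6. A −log10 q of at least 5 left 4 genes and 4 peaks, without *CDK9* and *NELFE*. A −log10 q of at least 10 left 1 gene and 1 peak, *SUPT5H*, and a fold of at least 10 left 0 genes and 0 peaks; a stricter threshold keeps fewer peaks by construction. With 1 peak per gene, picking it by −log10 q, by distance or within 1 kb changed no fold and no distance. *CCNT1* and *CDK7* were the 2 genes with CACGTG also in the 250 bases before the start alone and over all RefSeq promoters, both settings chosen after seeing the data. No paired analysis was possible because there was 1 ChIP and 1 input library, and no replicate could be left out. Pileups of 11 to 16 fragments limit what can be said of differences between these genes, and 1 list gives no error between cultures.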
